A study of Mus musculus with 42 samples.

Results

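Genes of meiotic crossover formation and of the mismatch repair family were examined in spermatogonia that lack CHD8, 8 in number: Msh4, Msh5, Hfm1, Rnf212, Tex11, Mlh3, Mcm8 and Mcm9. CHD8 is an ATP-dependent chromatin remodeller of the chromodomain helicase family. The 8 genes were chosen by name out of 27179 genes in the count table, and each was found there by its gene ID. RNA-seq had been performed on 2 spermatogonial fractions of male C57BL/6J mice at 10 dpp (days post-partum), with 3 libraries in each of 4 groups. Thy1+ cells are enriched for undifferentiated spermatogonia, and c-Kit+ cells for differentiating spermatogonia. The mutants (CKO) were Ddx4-Cre; Chd8 F/- and the controls were Ddx4-Cre; Chd8 +/F, so that all mice carried the same germline Cre driver and 1 floxed Chd8 allele, and the other allele was null in mutants and wild-type in controls. Because Ddx4-Cre acts in germ cells, somatic cells in the fractions would keep the floxed allele. The cells were enriched on magnetic beads from testes of 3 male pups for each analysis, c-Kit+ cells first and Thy1+ cells from the flow-through. The labels do not say that the replicates were separate litters, so p-values measure the spread between these samples.

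Meiotic recombination begins with programmed DNA double-strand breaks, and a minority of them are repaired as crossovers, the exchanges that hold homologous chromosomes together until they segregate. MSH4 and MSH5 belong to the MutS family of mismatch repair proteins but recognise joint molecules rather than mispaired bases, and they act as a heterodimer. They work with the helicase HFM1, the RING protein RNF212 and the scaffold TEX11 in the group of pro-crossover factors called ZMM proteins. MLH3, a MutL homologue, acts at the sites that become crossovers and also serves in mismatch repair. MCM8 and MCM9 resemble the subunits of the replicative MCM helicase and form a helicase of their own that serves homologous recombination in meiotic and dividing cells.

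The genes lay on 7 chromosomes of mm10. Msh4 spanned chr3:153857147-153906138 in 20 exons, Msh5 chr17:35028605-35046723 in 25, Mlh3 chr12:85234520-85270564 in 12, and Hfm1 chr5:106840197-106925890 in 41, all on the minus strand. Rnf212 spanned chr5:108728708-108750918 in 9 exons, Tex11 chrX:100838648-101059639 in 31 and Mcm9 chr10:53537324-53630439 in 14, also on the minus strand, whereas Mcm8 spanned chr2:132816335-132844197 in 18 exons on the plus strand. Exonic lengths ran from 974 bases in Rnf212 to 5428 in Mlh3. No exon of the 8 genes shared a base with an exon of another gene on either strand, so that counting without strand could not give them a neighbour's exonic reads. The start of Mcm8 lay 281 bases from that of Trmt6 on the other strand, and the other 7 starts were at least 3520 bases from the nearest start of another gene.

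Promoters are shown for 3 genes, the pair with the largest decreases in the mutants (Hfm1 and Msh5) and 1 that was not called (Mlh3). The sequences are those of RefSeq (GRCm38.p6, the build of the count table), upstream of the transcription start and outside the gene model of the count table, written 5′ to 3′ on the gene's strand, with matches to the searched letters in capitals.
Hfm1, chr5:106925891-106926140, minus strand, 250 bases: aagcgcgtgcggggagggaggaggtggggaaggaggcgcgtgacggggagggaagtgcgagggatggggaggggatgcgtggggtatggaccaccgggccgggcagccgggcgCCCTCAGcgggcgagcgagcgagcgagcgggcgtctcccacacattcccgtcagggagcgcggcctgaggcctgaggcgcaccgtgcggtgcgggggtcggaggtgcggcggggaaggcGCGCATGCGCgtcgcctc
Msh5, chr17:35046724-35046872, minus strand, 149 bases: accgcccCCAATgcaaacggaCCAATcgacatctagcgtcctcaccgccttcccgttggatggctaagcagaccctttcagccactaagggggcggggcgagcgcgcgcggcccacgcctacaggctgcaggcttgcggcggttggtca
Mlh3, chr12:85270592-85270841, minus strand, 250 bases, the start nearest to the gene model: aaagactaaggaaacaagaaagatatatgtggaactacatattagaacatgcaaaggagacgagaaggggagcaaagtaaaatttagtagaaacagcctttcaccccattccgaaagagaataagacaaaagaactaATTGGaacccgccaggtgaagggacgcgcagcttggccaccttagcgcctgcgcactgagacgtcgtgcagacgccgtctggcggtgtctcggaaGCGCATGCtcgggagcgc
The letters of 8 motifs were searched on both strands in the 250 bases before each start. The NRF1 letters GCATGCGC began 18 bases before the start of Hfm1, as an overlapping pair of matches on opposite strands. They began 18 bases before the printed start of Mlh3, but at -10 from its other RefSeq start, so the shared position depends on the start chosen. In Rnf212 they began 65 bases before the RefSeq start. Of 7 members with a promoter in the RefSeq table, 3 therefore held these letters, against 2.26% of all 32841 promoters, and they included members that fell and 1 that did not. CCAAT, the core of the NF-Y site, was held by 5 members (Msh5, Mlh3, Rnf212, Mcm8 and Mcm9) and by 33.9% of all promoters. CCCTCAG, the core of the motif bound by STRA8 and MEIOSIN, stood in Hfm1 and Mcm9 and in 6.41% of all promoters. The E2F letters TTTCCCGC were in Msh5 alone, in the stretch inside the gene model that is not printed (0.895% of all promoters), and CACGTG, the E-box, was in Mcm8 alone (6.02%). The other searched letters, TTTGGCGC (0.417%), TCACGTG (3.13%) and TGACGTCA (1.55%), were in none of the 7, and Msh4 matched none of the 8 motifs. The RefSeq start of Msh4 lay 1247 bases inside the gene model of the count table and that of Rnf212 lay 24109 bases upstream of it, so their windows may not be the promoters used in these cells. No promoter was shown or searched for Tex11. The CpG ratio (observed over expected) of the windows ran from 0.347 in Msh4 to 1.17 in Mcm9, and the median over all promoters was 0.374. Except for Msh4, each window had a higher ratio than 80.0% (Rnf212) to 99.1% (Mcm9) of all promoters. The shares of all promoters given above for the searched letters were not matched for this ratio.

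Library totals were 32266861 to 45396233 counts. Kit and Thy1 followed the labelled fractions, at 626 to 781 CPM (counts scaled to library size with TMM factors) for Kit in c-Kit+ libraries and 171 to 432 in Thy1+ libraries, and at 0.44 to 1.07 and 11.7 to 17.1 CPM for Thy1. Chd8 counts covered exons outside the floxed exons and do not check the deletion; Chd8 stood at 281 CPM in c-Kit+ controls and 305 CPM in c-Kit+ mutants. Somatic markers were present in all libraries. In c-Kit+ mutants the summed level of 6 Sertoli markers was 772 to 817 CPM against 199 to 464 CPM in controls, and that of 5 stromal markers 3240 to 4308 against 1790 to 2237 CPM. The 8 germ cell markers summed to 2353 to 2750 CPM in c-Kit+ mutants and 2796 to 3306 CPM in c-Kit+ controls. In bulk samples such as these, fewer cells of a type and less RNA per cell cannot be told apart.

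Per length of exon, the 8 genes differed widely in level in c-Kit+ controls. Tex11 was highest at 56.7 ± 6.71 RPKM (CPM per kilobase of exon, SD, n = 3), followed by Mcm8 at 24.4 ± 2.14, Msh5 at 15.7 ± 5.76, Hfm1 at 13.9 ± 5.58, Mlh3 at 8.30 ± 0.712, Mcm9 at 6.55 ± 0.245, Rnf212 at 5.98 ± 1.22 and Msh4 at 2.99 ± 0.446. Among neighbours in this order, the libraries overlapped for Msh5 and Hfm1 and for Mcm9 and Rnf212. In c-Kit+ mutants the order was Tex11 (34.0 ± 1.02 RPKM), Mcm8 (19.5 ± 1.21), Mlh3 (9.92 ± 0.518), Mcm9 (7.83 ± 0.678), Rnf212 (3.53 ± 1.10), Hfm1 (3.02 ± 0.464), Msh5 (2.28 ± 0.127) and Msh4 (1.47 ± 0.122), with overlap between Rnf212 and Hfm1 only. Msh5 thus stood in place 3 in the controls and in place 7 in the mutants. In both genotypes of the Thy1+ fraction Tex11 and Mcm8 were again the 2 highest and Msh4 was the lowest.

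**Figure D1:**
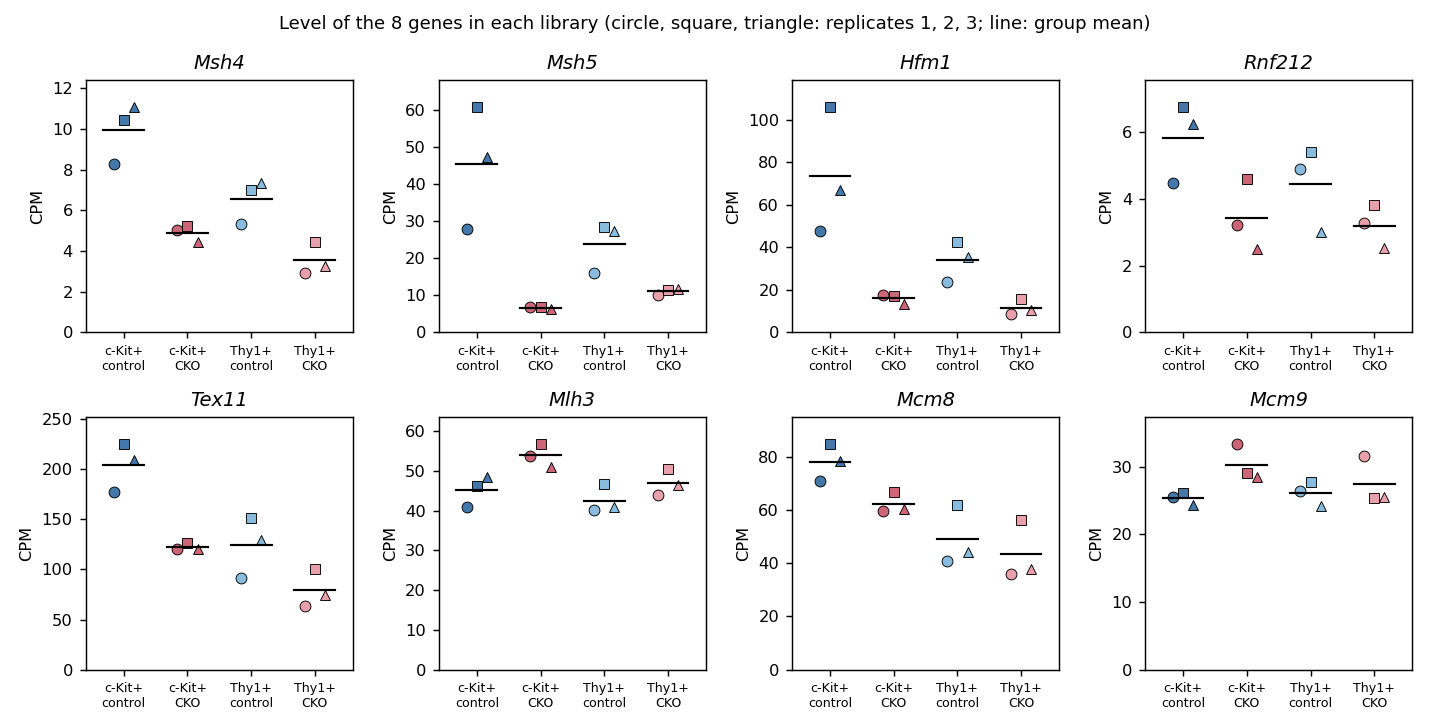
Level of each of the 8 genes in every library, in CPM on a linear axis that starts at 0, with a panel for each gene, a point for each library, and a line at the group mean. In c-Kit+ fractions the mutant points of Msh4, Msh5, Hfm1, Tex11 and Mcm8 all lie below the control points. Those of Mlh3 and Mcm9 all lie above them. Of all genes tested in this fraction, 20.6% have all mutants below all controls and 31.6% have them above.

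The loss of CHD8 was first compared within the c-Kit+ fraction. The ZMM genes Msh4, Msh5, Hfm1, Rnf212 and Tex11 fell, and Mlh3, Mcm8 and Mcm9 were not called. Calls required an FDR under 0.05 (edgeR quasi-likelihood F test, adjusted over all genes tested) and an absolute log2 fold change over 0.5. Thus 5 of 8 members were called lower and none higher. Of 17134 genes tested, 22.2% were called, 7.41% lower and 14.8% higher. All mutants lay below all controls in 20.6% of genes tested and above them in 31.6%, so groups without overlap were common. The median log2 fold change of the members was -0.81, and that of all genes tested was 0.01.

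Msh5 showed the largest decrease of the 8. It stood at 27.8, 61.0 and 47.4 CPM in the control libraries and at 6.88, 6.77 and 6.19 CPM in the mutants. The mutants were close to each other and far below the lowest control, whereas the controls differed among themselves. The log2 fold change was -2.84 ± 0.25 (SE, FDR = 0.000132), a level 7.15-fold lower (95% interval 4.90 to 10.4), and only 29 of the genes tested had a lower value. Its partner Msh4 was expressed at 8.27, 10.5 and 11.1 CPM in controls and 5.02, 5.21 and 4.43 CPM in mutants, without overlap. Msh4 fell by 1.08 ± 0.16 on the log2 scale, or 2.12-fold (95% interval 1.65 to 2.71, FDR = 0.00073).

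Hfm1, the helicase, was at 47.8, 106 and 67.1 CPM in c-Kit+ controls and at 17.6, 17.3 and 13.2 CPM in the mutants. As with Msh5, control replicate 2 was the highest library and the mutants lay together well below the lowest control. The log2 fold change was -2.26 ± 0.25 (FDR = 0.000232), or 4.78-fold lower. Tex11, whose protein sits at sites of recombination and synapsis, was at 178, 225 and 209 CPM in controls and 120, 126 and 120 CPM in mutants. It fell by 0.80 ± 0.09 on the log2 scale without overlap of the groups (FDR = 0.000207). Rnf212, whose product marks a subset of recombination sites, was the least certain of the 5. It stood at 4.48, 6.75 and 6.24 CPM in controls and 3.22, 4.60 and 2.49 CPM in mutants, and the highest mutant exceeded the lowest control. The log2 fold change of Rnf212 was -0.81 ± 0.25 (FDR = 0.0261). The call of Rnf212 was lost in 4 of the 6 fits that left out 1 library (control replicate 2 or 3, or mutant replicate 1 or 3), where its log2 fold change ran from -0.63 to -0.77, and in the fit of all 12 libraries (-0.76).

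Mlh3 did not follow the ZMM genes. It was at 40.8, 46.0 and 48.3 CPM in controls and 53.8, 56.7 and 51.1 CPM in mutants, all above the controls, with a log2 fold change of 0.20 ± 0.09 that was not called (FDR = 0.0942). Of the MCM pair, Mcm8 was at 71.0, 84.7 and 78.4 CPM in controls and 59.7, 66.8 and 60.5 CPM in mutants. The groups of Mcm8 did not overlap and its FDR of 0.00556 was under the threshold, but its log2 fold change of -0.38 ± 0.08 was under the minimum of 0.5. Mcm9 was at 25.6, 26.2 and 24.3 CPM in controls and 33.4, 29.1 and 28.6 CPM in mutants, and was not called at a log2 fold change of 0.20 ± 0.09 (FDR = 0.12).

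The members of each pair of partner genes were set against each other within libraries. The ratio of Msh5 to Msh4 in RPKM was 3.87, 6.70 and 4.91 in c-Kit+ controls and 1.58, 1.49 and 1.61 in c-Kit+ mutants. The groups did not overlap, and the exact two-sided permutation test gave p = 0.1, the smallest that 3 against 3 libraries allow. In Thy1+ libraries the ratio was 3.44, 4.68 and 4.29 in controls and 3.96, 2.98 and 4.08 in mutants, with overlap (exact permutation p = 0.5). The ratio of Mcm8 to Mcm9 was 3.36, 3.91 and 3.89 in c-Kit+ controls and 2.16, 2.78 and 2.56 in c-Kit+ mutants (exact permutation p = 0.1), and overlapped between genotypes in Thy1+ libraries (exact permutation p = 0.4). These ratios do not depend on the scaling of the libraries, and the pairs were chosen after the values were seen.

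**Figure D2:**
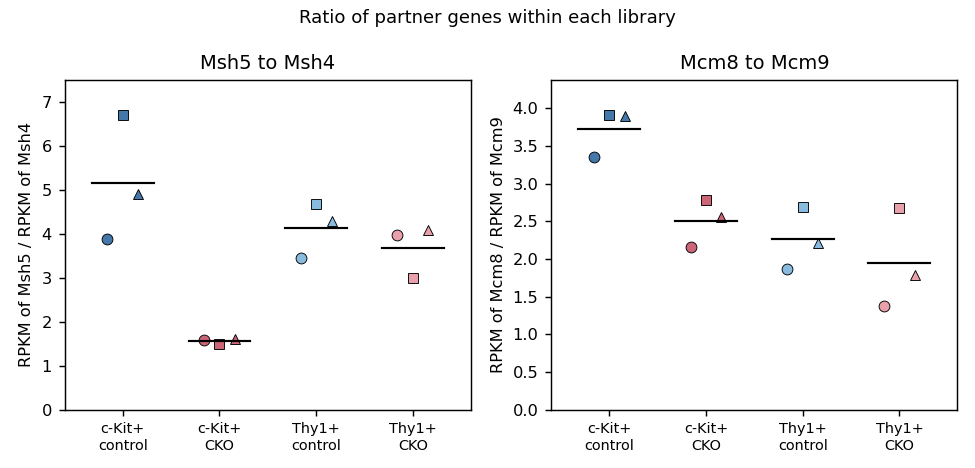
Ratio of the RPKM of Msh5 to Msh4 (left) and of Mcm8 to Mcm9 (right) in each library, on linear axes that start at 0, with a line at the group mean. The 3 c-Kit+ mutant libraries have an Msh5 to Msh4 ratio of 1.49 to 1.61, below every other library.

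Markers of other cells moved with the genotype in the c-Kit+ fraction. All 6 Sertoli, 5 stromal, 4 endothelial and 3 mast cell markers rose, as did 3 of 5 Leydig and 3 of 4 peritubular myoid markers, and 0 of 4 macrophage markers were called. With the replicate number as a block, which called 23.3% of all genes tested, all 5 Leydig markers and 2 of 4 macrophage markers were called higher. In the fit of all 12 libraries 1 of the 6 Sertoli markers and 1 of the 3 mast cell markers were called. The share of all genes called in the fit of all 12 libraries is not given here. None of the 8 germ cell markers was called, but all 8 had negative values, with a median of -0.27. With the block, Ddx4, Dazl, Tdrd1, Mael, Asz1, Dnd1 and Tdrd9 passed the FDR threshold (0.00014 to 0.0199) but not the fold minimum. Dazl had the lowest log2 fold change there, at -0.45, and Piwil2 did not pass (FDR = 0.288). The 8 markers of early meiotic prophase all fell (median log2 fold change -1.56), and their summed level was 795 to 1353 CPM in controls and 350 to 396 CPM in mutants. The part of cell composition in the decreases was not tested beyond a rescaling to the 8 germ cell markers. That scaling moved the median of all genes by 0.26. Under it 4 of the 5 remained called, with log2 fold changes of -0.54 to -2.58 for Tex11, Msh4, Hfm1 and Msh5. Rnf212 was not called at -0.58. Over all alternatives, log2 fold changes ran from -0.45 to -0.13 for Mcm8, 0.13 to 0.45 for Mlh3 and 0.12 to 0.46 for Mcm9. Mlh3 and Mcm9 were called in none of the alternatives. As a ratio to the geometric mean of the 8 germ cell markers, counts of Msh5 were at 0.115, 0.236 and 0.21 in controls and 0.0325, 0.0299 and 0.0316 in mutants.

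The same comparison in the Thy1+ fraction gave no call for any gene by the quasi-likelihood test of edgeR. Of 17416 genes tested 0% were called, the lowest FDR was 0.141, and 2151 genes had an unadjusted p under 0.05. The exact test of edgeR called 294 genes and DESeq2 384, with 2 members (Msh5 and Hfm1) and 3 members (the same and Msh4) among them. Among the members, 4 had such a p in the quasi-likelihood test (Msh4, Msh5, Hfm1 and Tex11), all with negative values. Hfm1 was at 23.6, 42.3 and 35.6 CPM in Thy1+ controls and 8.44, 15.5 and 10.5 CPM in Thy1+ mutants, without overlap, a log2 fold change of -1.55 ± 0.28 (FDR = 0.163). Msh5 was at 15.9, 28.5 and 27.4 CPM in controls and 10.0, 11.6 and 11.6 CPM in mutants, also without overlap (log2 fold change -1.11 ± 0.23, FDR = 0.194). Msh4 stood at 5.32, 6.99 and 7.36 CPM against 2.91, 4.46 and 3.27 CPM, with a log2 fold change of -0.88 ± 0.24 (FDR = 0.292). Tex11 stood at 91.7, 151 and 130 CPM against 64.0, 101 and 74.4 CPM, and its groups overlapped (-0.63 ± 0.22, FDR = 0.348). The log2 fold changes of the other members were -0.46 for Rnf212, -0.17 for Mcm8, 0.15 for Mlh3 and 0.08 for Mcm9, none with an unadjusted p under 0.05. Of all genes tested in this fraction, 10.7% had all mutants below all controls and 6.51% had them above.

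Replicate numbers paired the Thy1+ libraries, since same-numbered control and mutant libraries deviated together from their group means. With the replicate number as a block, 8.12% of genes were called and the member calls went from 0 to 4. In that fit Hfm1 fell by 1.55 ± 0.10 (FDR = 7.5e-08), Tex11 by 0.63 ± 0.06 (FDR = 4.91e-06), Msh5 by 1.07 ± 0.12 (FDR = 1.51e-05) and Msh4 by 0.88 ± 0.18 (FDR = 0.00177) on the log2 scale. Within the 3 pairs, the log2 ratio of Hfm1 was -1.48, -1.44 and -1.75, that of Tex11 -0.52, -0.59 and -0.80, and that of Mcm8 -0.19, -0.13 and -0.24. Rnf212 (FDR = 0.11) and Mcm8 (FDR = 0.0639) were not called with the block. Over all alternatives tried, the FDR ran from 7.5e-08 to 0.694 for Hfm1 and from 1.51e-05 to 0.694 for Msh5 in this fraction. Leaving out control replicate 1 alone also called Msh5 (log2 fold change -1.33). Markers moved in this fraction too. All 8 early meiotic markers and all 7 markers of undifferentiated spermatogonia had negative values (medians -1.02 and -0.83), and all 6 Sertoli markers had positive ones (median 0.63). None of these markers was called without the block, whereas with it all 8 early meiotic markers and 6 of the 7 undifferentiated markers were called lower and all 6 Sertoli markers higher. None of the 8 germ cell markers was called in either fit, but all 8 had negative values (median -0.30 without the block). With the block, Ddx4, Dazl, Tdrd1, Mael, Asz1, Dnd1 and Tdrd9 passed the FDR threshold (2.12e-05 to 0.00155). Their log2 fold changes, -0.48 for Tdrd1 at the lowest, did not reach the minimum of 0.5. Piwil2 did not pass (FDR = 0.0552).

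**Figure D3:**
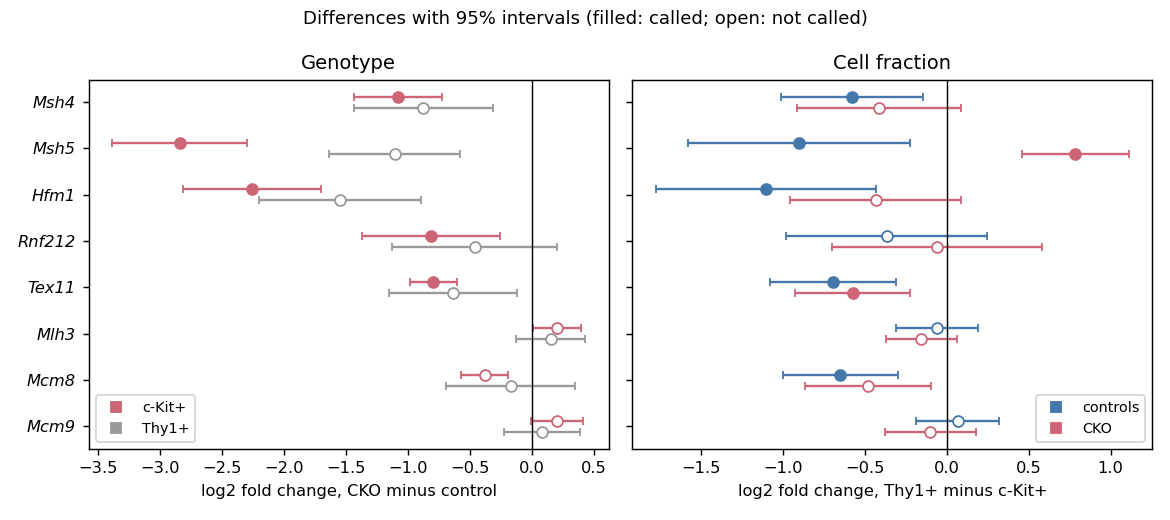
Log2 fold changes of the 8 genes with 95% confidence intervals, for mutant minus control in each fraction (left) and for Thy1+ minus c-Kit+ in each genotype (right), where filled points were called and open points were not. Msh5 differs most between fractions at left (-2.84 and -1.11), and at right it lies on opposite sides of 0 in controls (-0.90) and mutants (0.78).

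Whether the genotype effect differed between fractions was tested as an interaction over all 12 libraries. No gene passed (0% of 18002 at an FDR under 0.05, lowest FDR 0.235, with 1804 genes at an unadjusted p under 0.05). Msh5 had the largest difference among the members, -1.67 ± 0.37 on the log2 scale (95% interval -2.46 to -0.87, FDR = 0.336). DESeq2 called 59 genes, with Msh5 alone among the members (FDR = 0.00499). The fit with the replicate block called 2.48% of genes, again with Msh5 alone among the members, and over all alternatives the FDR of Msh5 ran from 0.00499 to 1.00. The differences of the other members had FDRs of 0.641 or more, and their intervals included 0. That of Hfm1 was -0.65 (95% interval -1.56 to 0.26) and that of Msh4 was -0.14 (-0.76 to 0.47).

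The fractions were then compared within each genotype. In controls, 5 members were lower in Thy1+ than in c-Kit+ libraries and none was higher. Of 17350 genes tested 27.8% were called, 7.08% lower and 20.7% higher. The log2 fold changes (Thy1+ minus c-Kit+) were -1.10 for Hfm1 (FDR = 0.0197), -0.90 for Msh5 (FDR = 0.0419), -0.69 for Tex11 (FDR = 0.0136), -0.65 for Mcm8 (FDR = 0.0127) and -0.58 for Msh4 (FDR = 0.0427). The libraries of Msh5 overlapped slightly, at a highest Thy1+ value of 28.5 and a lowest c-Kit+ value of 27.8 CPM. Rnf212 (-0.37), Mlh3 (-0.06) and Mcm9 (0.07) were not called. These calls changed when single libraries were left out. The shares of all genes called in those fits, and in the rescaled fit below, are not given here. The changes are therefore not by themselves results about the members. None of the 5 was called without c-Kit+ control replicate 2, the library in which Msh5, Hfm1 and Tex11 were highest, 3 were called without c-Kit+ control replicate 3 or Thy1+ control replicate 1, and 2 without Thy1+ control replicate 3. No member was called when libraries were scaled to germ cell markers, which summed to 1753 to 2614 CPM in Thy1+ controls against 2796 to 3306 CPM in c-Kit+ controls; stromal markers summed to 10946 to 14267 CPM against 1790 to 2237 CPM.

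In mutants the order of Msh5 was the opposite. It was higher in Thy1+ (10.0, 11.6 and 11.6 CPM) than in c-Kit+ libraries (6.88, 6.77 and 6.19 CPM), without overlap, with a log2 fold change of 0.78 ± 0.14 (FDR = 0.0048). It was called under every alternative tried, at 0.70 to 1.34. Of 17346 genes tested 20.3% were called, 5.03% lower and 15.3% higher in Thy1+. All Thy1+ mutants lay above all c-Kit+ mutants in 23.3% of genes tested and below them in 26.7%. Tex11 was called lower (-0.57 ± 0.15, FDR = 0.0264), but not in 5 of the 6 fits that left out 1 library. Without Thy1+ mutant replicate 2, in which Hfm1, Tex11 and Mcm8 were highest among the Thy1+ mutants, 5 members were called, Msh4, Hfm1, Tex11 and Mcm8 lower and Msh5 higher. The share of all genes called in that fit is not given here, so this count has no background beside it. The remaining log2 fold changes were -0.43 for Hfm1, -0.41 for Msh4, -0.48 for Mcm8, -0.15 for Mlh3, -0.10 for Mcm9 and -0.06 for Rnf212. The population comparison in mutants shares libraries with the genotype comparisons, so these values are not independent of them.

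Related genes were followed in 4 lists in the c-Kit+ fraction, against the background of 7.41% called lower. Of 6 other crossover factors tested, 3 fell and none rose: Shoc1 (log2 fold change -2.72 ± 0.25), a ZMM protein that resembles structure-specific nucleases, Mcmdc2 (-2.00 ± 0.29), an MCM-like protein of meiotic recombination, and Cntd1 (-1.49 ± 0.21), a cyclin-like factor of crossover maturation. Ccnb1ip1, Prr19 and Cdk2 were not called (-0.29, -0.34 and -0.16), and Spo16 and Rnf212b were not analysed here. Shoc1 was at 41.6 CPM in c-Kit+ controls and 6.54 CPM in c-Kit+ mutants. Of 5 genes of mismatch repair (Msh3, Msh6, Pms1, Pms2 and Exo1), none was called. Pms2 was called lower without c-Kit+ control replicate 1, a name given after its value was seen. Their median log2 fold change was -0.09, or 0.17 when scaled to germ cell markers, and single values ran from -0.43 for Pms2 to 0.21 for Msh3.

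Of 9 nucleases and dissolution factors, which cut or undo joint molecules, 2 fell, both partners of the helicase BLM: Top3a (-0.51 ± 0.07), a topoisomerase, and Rmi2 (-0.66 ± 0.15). Mus81, Eme1, Slx4, Slx1b, Gen1, Rmi1 and Blm were not called, with Blm at -0.44 ± 0.08 below the fold minimum (FDR = 0.00205). Of the 6 subunits of the replicative MCM helicase and Hrob, which loads MCM8 and MCM9, Mcm5 (-0.78 ± 0.07) and Hrob (-0.56 ± 0.10) fell. The other 5 subunits had log2 fold changes of -0.20 to -0.36, which did not reach the fold minimum of 0.5, and none was called. All 7 genes of this list had negative values and an unadjusted p under 0.05. Such a p was common in this comparison, at 8191 of the 17134 genes tested in either direction. Without c-Kit+ control replicate 2 and in the fit of all 12 libraries the calls of Top3a and Hrob were lost, and scaling to germ cell markers left Mcm5 alone. Shoc1, Mcmdc2 and Cntd1 were called under all alternatives tried for the lists. In the Thy1+ fraction no gene of the 4 lists was called, or Shoc1, Mcmdc2 and Cntd1 with the replicate block, and Shoc1 had the lowest value (-2.10 ± 0.36, FDR = 0.163).

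**Figure D4:**
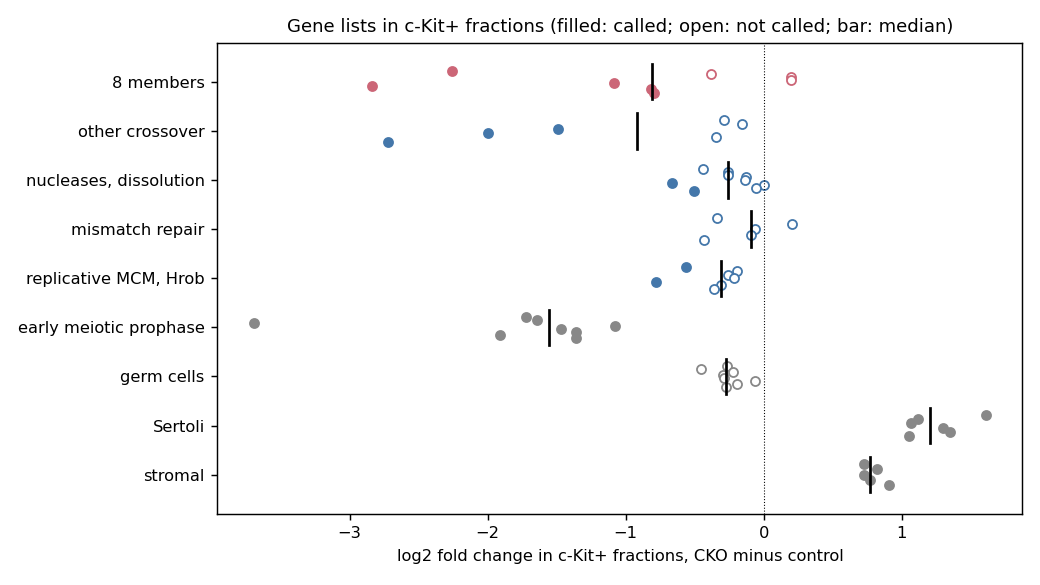
Log2 fold change of each tested gene in the c-Kit+ fraction, mutant minus control, by list, where filled points were called, open points were not, and bars mark the median. The medians of the members (-0.81) and of the other crossover factors (-0.92) lie below that of the mismatch repair genes (-0.09), and the early meiotic markers are all called lower.

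Across the 12 libraries, 6 members correlated positively with the rest and 2 did not. The Pearson correlation of log2 CPM with the mean profile of the other 7 was 0.92 for Tex11, 0.88 for Mcm8, 0.84 for Msh4, 0.83 for Hfm1, 0.74 for Rnf212 and 0.53 for Msh5, but -0.03 for Mlh3 and -0.36 for Mcm9. These values describe libraries that share their genotype and fraction. With group means removed, the value for Mlh3 was 0.88 and that for Mcm9 was -0.18. Among 13668 other genes, those whose profile was most like the mean of the 8 members were Cep295 (r = 0.98), Blm (0.98), Ppm1g (0.98), Brip1 (0.98) and Adad1 (0.98). Cep295 is a centriole protein, Ppm1g a protein phosphatase, Brip1 a helicase of DNA repair and Adad1 a testis RNA-binding protein. Each was highest in c-Kit+ controls and lowest in Thy1+ mutants. This order follows from their choice by correlation over the same 12 libraries and is not a separate result. Brip1 was at 60.5, 37.9, 39.0 and 28.3 CPM in c-Kit+ controls, c-Kit+ mutants, Thy1+ controls and Thy1+ mutants. The mean profile of the 8 members was unlike that of Mlh3 (r = 0.16) and of Mcm9 (r = -0.19).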

How the data were processed

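RNA-seq libraries of Thy1+ and c-Kit+ cells (NEBNext Ultra II Directional, poly(A) RNA) were analysed; the ChIP-seq samples of the series were not analysed here. Trimming had been done in Trimmomatic 0.39 and alignment to mm10 in HISAT2 2.1.0, and the authors deposited raw counts per gene from featureCounts on RefSeq exons (version 2.0.3 per the file headers, 2.0.1 in the methods). The recorded command had no strand option and counted both reads of a pair, so that 65.6% to 69.5% of values from 1 to 19 were even and counting error is larger than the totals imply.

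Gene symbols came from RefSeq. Counts were tested with edgeR 4.0.16 (R 4.3.3) after TMM scaling and filterByExpr, by the quasi-likelihood F test with Benjamini-Hochberg adjustment over all genes. The members and lists were chosen with earlier results of these data known, and 2 genes of the mismatch repair list are not reported here. Alternatives were the exact test, DESeq2 1.42.0 (Wald test and size factors), other scalings and filters, a fit of all 12 libraries, the replicate number as a block, and leaving out each library. CPM and RPKM used TMM-scaled totals and exonic length. Named genes were the members, the 4 related lists and the 5 genes most correlated with the mean standardised member profile (mean log2 CPM of at least 1). On simulated counts with 200 genes changed by 1.5 on the log2 scale, 194 were recovered in the c-Kit+ comparison (17106 genes tested) and 191 in the Thy1+ comparison (17427 genes tested). This recovery does not carry over to the Thy1+ data, where the same test called no gene. Hfm1 at -1.55 and Shoc1 at -2.10 were not called there. Same-numbered libraries correlated in their deviations from group means at 0.101 to 0.125 (c-Kit+ genotype), 0.269 to 0.494 (Thy1+ genotype) and 0.134 to 0.298 (fractions in controls). All were over the limit of 0.1. The main fits, with their intervals and calls, left this pairing out, and the fits with the replicate block are given as alternatives.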

Additional observations from a re-analysis of the deposited data

How the results depend on the processing

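In the c-Kit+ genotype comparison 4 to 6 members were called under all 16 alternatives, and Msh4, Msh5, Hfm1 and Tex11 under each of them. Leaving out 1 library gave 4 to 5 members called in c-Kit+ cells, 0 to 1 in Thy1+ cells, 0 to 5 between fractions in controls, 1 to 5 between fractions in CKO and 0 in every fit of the difference of genotype effects. In Thy1+ cells the members called were 2 by the exact test, 1 in the fit of all 12 libraries, 3 by DESeq2 and 4 with the replicate block. The calls of all genes moved with the setting as well, in Thy1+ cells from 0% in the main fit to 8.12% with the block. A changed count of members is therefore not by itself a result about them. Between fractions, scaling to germ cell markers gave 0 calls in controls and 1 in CKO. For the difference of genotype effects DESeq2 and the replicate block each called 1 (Msh5, FDR = 0.0186 with the block, which called 446 of 18002 genes against 0 without it). Same-numbered libraries correlated over 0.1 in 10 of 18 pairs there (0.0049 to 0.45) and in 1 of 3 between fractions in CKO (0.022 to 0.20). These correlations do not settle whether the samples of these comparisons were paired. In the CKO fractions the block added Mcm8 (-0.51). It changed no other member call in the c-Kit+ or control comparison.

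Directions turned only for values that were not called in the main analysis. Scaling to germ cell markers, which moved the median of all genes by 0.26, 0.35, 0.42 and 0.57 in the c-Kit+, Thy1+, control and CKO comparisons, gave 0.16 for Mcm8 in Thy1+ cells, 0.35 for Mlh3 and 0.021 for Rnf212 between fractions in controls, 0.095 for Msh4, 0.40 for Mlh3, 0.060 for Hfm1, 0.48 for Rnf212, 0.022 for Mcm8 and 0.49 for Mcm9 between fractions in CKO, and -0.054 for Mlh3 and -0.0070 for Mcm9 in the difference of effects. Scaling by library size alone gave -0.018 for Mcm9 between fractions in controls. Leaving out 1 library gave signs that turned within -0.43 to 0.039 for Mcm8 and -0.028 to 0.13 for Mcm9 in Thy1+ cells, -0.016 to 0.093 for Mcm9 in controls, -0.26 to 0.21 for Rnf212 in CKO, and in the difference of effects -0.35 to 0.10 for Tex11, -0.048 to 0.17 for Mlh3, -0.28 to 0.061 for Msh4 and -0.44 to 0.090 for Mcm8. The cause of these changes was not tested. Depth did not leave a member undetected, since the lowest count was 78 (Rnf212).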
